A study of Homo sapiens with 2 samples.

Results

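The genes described here carried clusters of crosslinked reads in the ZC3H7A library, and none was listed for them in the ZC3H7B library. Their ZC3H7A reads came from a median of 13 distinct reads for each gene, against 32 for genes listed for both. They were chosen as genes with at least 100 reads in the ZC3H7A table whose name was missing from the ZC3H7B table, after rows of repeats, tRNAs and other pooled small RNA classes were left out. There were 136 of them among 8209 genes listed for ZC3H7A. The reads and the missing entry are the values that chose them, so both are given below as a description. The data are PAR-CLIP libraries from HEK293, a line derived from human embryonic kidney, 1 library for Flag/HA-tagged ZC3H7A and 1 for Flag/HA-tagged ZC3H7B. Both carried the tagged protein as an overexpressed transgene, induced with 1 µg/mL doxycycline for 24 h and followed by 100 µM 4-thiouridine for 16 h and light of 365 nm. There was no library without a tagged protein, and no value has a replicate, so no test between the proteins was possible. Percentages are given with exact Clopper-Pearson 95% intervals, which cover counting error only and treat each cluster or gene as independent.

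PAR-CLIP places a photoreactive uridine analogue in cellular RNA. Protein that touches it is crosslinked by light, and reverse transcription then reads the crosslinked base as C in place of T. Reads that overlap and hold such changes are grouped into clusters, and the deposited tables list a gene only where a cluster was called. ZC3H7A and ZC3H7B are related CCCH zinc finger proteins that bind RNA. Absence from a table means that no cluster was called there, and not that 0 reads were measured.

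The ZC3H7A library held 3780104 reads in 51817 clusters and the ZC3H7B library 2409541 reads in 99812 clusters. Reads per distinct read sequence were 12.6 for ZC3H7A and 1.99 for ZC3H7B, and reads that are PCR copies are not independent molecules. The transcript of the tagged protein had 82704 reads in the ZC3H7A library against 158 with ZC3H7B tagged, and ZC3H7B had 1362 against 3768. The RNA-binding protein gene LIN28B and the intermediate filament gene VIM, which are known in this line, were listed in both libraries. NEFL was listed in both, while NEFM, PAX2 and the genes of other tissues (ALB, PTPRC, INS and MYH7) were listed in neither.

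Most of the 136 genes lay near the lower edge of the rule. Their reads ran from 100 to 1644 with a median of 146.5. Of them, 73 had under 150 reads, 33 had at least 200 and 6 had at least 400. Together they held 25722 reads, 0.680% of the ZC3H7A library, in 427 clusters. Behind these reads stood 2103 distinct reads, with a median of 13 for each gene. C19orf53 and HIST1H3H, with 100 reads each, were just inside the rule, followed by GPS1 and HDDC3 with 101 and AURKAIP1 with 102. MRPL52 and SARNP, with 99 reads each, were just outside it, followed by FAM96B with 98 and PARP8 and PSMD13 with 97. In all, 852 further genes were listed only for ZC3H7A with fewer than 100 reads.

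Only 2.89% of the 4711 genes with at least 100 ZC3H7A reads were missing for ZC3H7B. This share was 8.85% (7.0 to 11%) among genes with 100 to under 150 reads, 5.63% (3.83 to 7.94%) up to under 200 and 2.13% (1.41 to 3.09%) up to under 400. It was 5 of 1197 genes with 400 to under 1000 reads and 1 of 889 with 1000 or more. The genes found in both libraries had a median of 85.5 ZC3H7B reads in the lowest of these groups and 915.5 in the highest. Missing genes were also more frequent where clusters were few, with 27 of 97 genes of 1 cluster (27.8%) and 5 of 2461 genes of 7 or more clusters (0.203%). The other direction gave a similar number, since 123 of 4219 genes with at least 100 ZC3H7B reads (2.92%) were missing for ZC3H7A. The minimum of 100 reads is not alike in the 2 libraries, which had 12.6 (ZC3H7A) and 1.99 (ZC3H7B) reads per distinct read. The 123 genes had a median of 77 distinct reads in the ZC3H7B library, and the 136 genes had 13 in the ZC3H7A library.

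**Figure D1:**
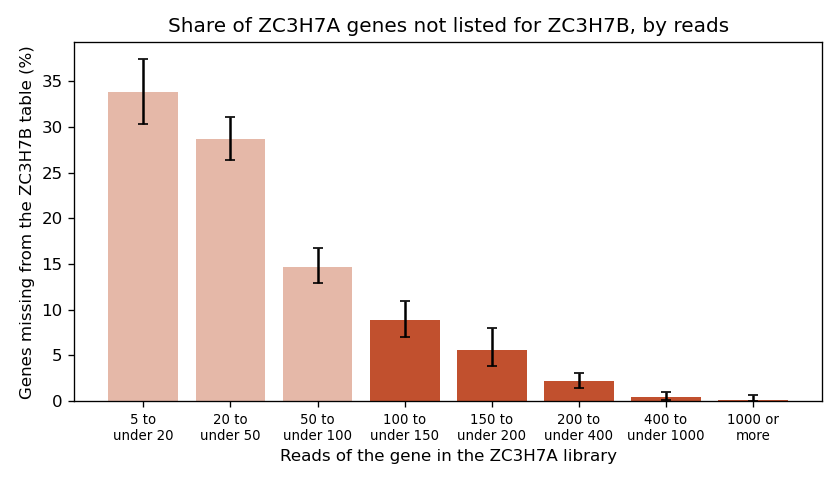
The bars show the percentage of genes listed for ZC3H7A that were missing from the ZC3H7B table, by reads in the ZC3H7A library, with exact 95% intervals. Dark bars mark genes with at least 100 reads, where the percentage was 8.85% in the lowest group and 0.112% in the highest.

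Absence from the ZC3H7B table was the end of a range. Among genes with at least 100 ZC3H7A reads, 85 had under 10 reads in the ZC3H7B library and 497 had 10 to under 50. The genes nearest to being missing had 5 ZC3H7B reads in 1 cluster. GABARAP, an autophagy protein, had 636 reads in the ZC3H7A library, LGALS3BP had 397, the ribosomal protein genes RPL17 and RPL35 had 321 and 311, and PTMA, which encodes prothymosin alpha, had 289. These exceed the reads of most of the 136 genes.

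**Figure D2:**
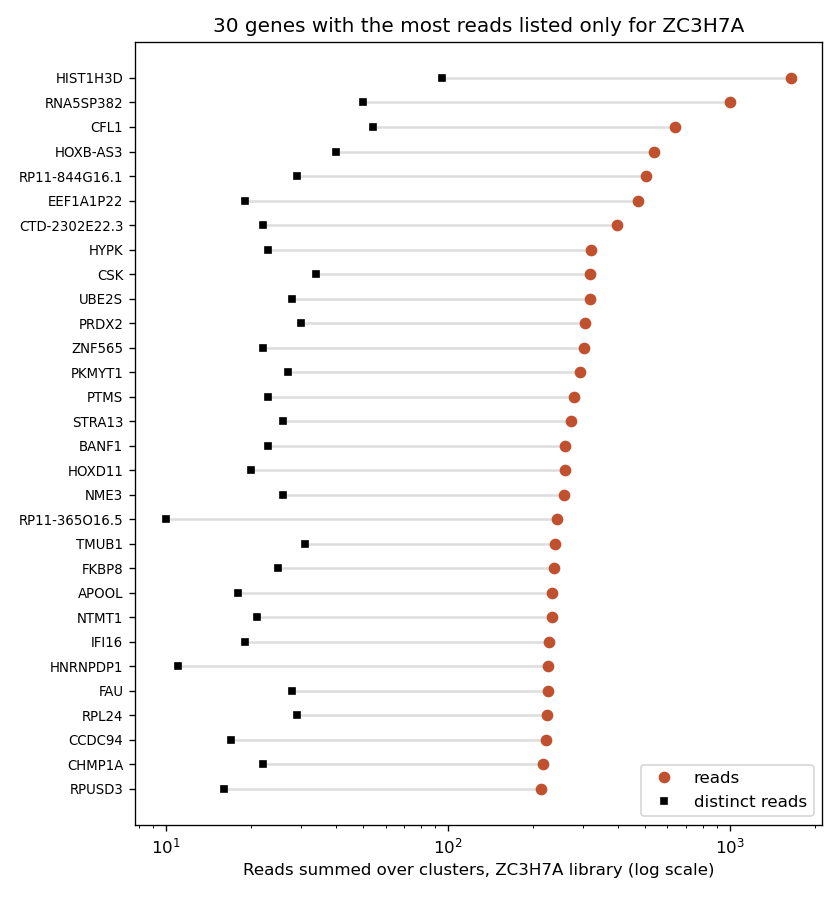
Each row is 1 of the 30 most-read genes that were listed only for ZC3H7A, and the log axis gives reads and distinct reads summed over clusters in the ZC3H7A library. HIST1H3D leads with 1644 reads from 95 distinct reads, and RP11-365O16.5 has 244 reads from 10.

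By RefSeq biotype 107 of the 136 genes were protein coding (78.7%), against 4427 of the 4575 genes listed for both (96.8%). A further 22 were pseudogenes by the deposited class or by RefSeq, 2 were long noncoding RNAs and 2 were microRNA genes. STRA13, RP11-13N13.2 and RP11-563D10.1, with 273, 203 and 140 reads, were not matched to RefSeq and so were counted in none of these. STRA13 had 3 of its 4 clusters in the 3' UTR and is left out of the protein-coding comparisons below for want of a match. Pseudogenes are copies of other genes that usually make no protein, and reads can be uncertain between them and their parents. Of 93 pseudogenes with at least 100 ZC3H7A reads, 22 were missing for ZC3H7B (23.7%, 15.5 to 33.6%). Of protein-coding genes 107 of 4534 were missing (2.36%, 1.94 to 2.84%).

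Histone genes contributed 5 of the 136, out of 34 with at least 100 ZC3H7A reads (14.7%), beside 2.89% of all genes. Histones package DNA, and their replication-dependent genes form large families of nearly identical copies, so reads are uncertain between copies. HIST1H3D, a histone H3 gene, had 1644 reads from 95 distinct reads in 4 clusters, 2 in coding sequence, 1 in the 5' UTR and 1 at the start codon. HIST1H2AD, whose RefSeq span overlaps it, was missing for ZC3H7A and had 51 reads for ZC3H7B. The linker histone gene HIST1H1D had 175 reads in 6 clusters, HIST1H2BN had 170 in 1, and the H3 genes HIST1H3A and HIST1H3H had 165 and 100 in 3 each. A further 29 histone genes with at least 100 ZC3H7A reads were listed for both. Apart from HIST1H3D, the histone genes among the 136 had 100 to 175 reads. Of all genes, 8.85% with 100 to under 150 reads and 5.63% with 150 to under 200 were missing. The share of histone genes within these ranges was not computed.

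CFL1, which encodes cofilin, a protein that severs actin filaments, was the protein-coding gene with the most reads after HIST1H3D. It had 638 reads from 54 distinct reads in 9 clusters, 3 in coding sequence, 3 in the 3' UTR and 1 in the 5' UTR. Its muscle-type relative CFL2 had 2153 ZC3H7A reads and 362 ZC3H7B reads. Of 19 genes for actin and its regulators, CFL1 alone was missing for ZC3H7B.

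The HOX genes set position along the body axis. HOXB-AS3, an antisense transcript of the HOXB cluster, had 536 reads from 40 distinct reads in 9 clusters with a median T-to-C fraction of 1.00. HOXB5 and HOXB6 overlap it. HOXB5 had 226 reads for ZC3H7A and 415 for ZC3H7B, and HOXB6 had 182 and 37. Strand is not stated for the counting, so reads of overlapping genes cannot be told apart with certainty. HOXD11 had 261 reads in 4 clusters. The other 11 HOX entries with at least 100 reads were listed for both. TMCC1-AS1, the other antisense gene, had 129 reads.

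Ribosomal protein genes, cytosolic and mitochondrial, were among the 136. FAU, which encodes a ubiquitin-like protein fused to a ribosomal protein, had 226 reads in 3 clusters and RPL24 had 224 in 4, 2 of them at the start codon. RPL39L and RPL41 had 115 and 106. These are 4 of 62 cytosolic ribosomal protein genes with at least 100 reads (6.45%), beside 2.89% of all genes, and 58 were listed for both. MRPL55 and MRPL54, of the mitochondrial ribosome, had 183 and 138 reads and were 2 of 52 (3.85%). Another gene of translation was EIF2B3, a subunit of an initiation factor, with 158 reads.

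Of 56 nuclear respiratory chain genes with at least 100 reads, 5 were missing for ZC3H7B (8.93%), beside 2.89% of all genes. All 5 had 110 to 139 reads, and 8.85% of all genes with 100 to under 150 reads were missing. The share of this list within that range was not computed. COX8A and COX5B, subunits of cytochrome c oxidase, had 139 and 114 reads, UQCRC1, of complex III, had 114 and NDUFB7, of complex I, had 110. The fifth was COX7A2P2, a pseudogene, with 124. Outside this list, SDHAF1, an assembly factor of complex II, had 204 reads, APOOL, a protein of the inner mitochondrial membrane, had 234, and RPUSD3, a mitochondrial RNA modification protein, had 213. PRDX2, a peroxiredoxin that removes peroxide, had 305 reads in 6 clusters, 4 of them in coding sequence.

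Other lists were represented by few genes or by none. Counts this small, and those of the histone and ribosomal protein lists above, are not read as a difference from the 2.89% of all genes. No interval was computed for the share of any list apart from pseudogenes, and no list was matched by reads. PSMC3, an ATPase subunit of the proteasome, had 103 reads and was 1 of 32 proteasome genes. The RNA polymerase II subunit gene POLR2I had 193 reads and was 1 of 15 polymerase genes. FKBP8, which encodes an FK506 binding protein of mitochondria, had 237 and was 1 of 14, and TMEM129 had 144 and was 1 of 49. Of 211 ZNF genes 4 were missing for ZC3H7B, namely ZNF565 (304 reads), ZNF394 (148), ZNF580 (111) and ZNF133 (102). ZNF565 overlaps ZNF146, which had 4156 reads for ZC3H7A and 3789 for ZC3H7B. None of 59 solute carrier genes, 27 RAB and ARF genes, 18 mitochondrial translocase genes or 16 snRNP core genes was among the 136. In all, 51 of the 136 genes fell in at least 1 list and 85 in none.

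Among the 85 were regulators of the cell cycle and of the nucleus. PKMYT1, a kinase that inhibits CDK1, had 294 reads in 5 clusters, and UBE2S, a ubiquitin-conjugating enzyme of the anaphase-promoting complex, had 318 in 2, both in the 5' UTR. The RefSeq span of UBE2S overlaps that of RPL28, which had 717 ZC3H7A reads and 413 ZC3H7B reads. TK1, a thymidine kinase, had 181 reads, BANF1, which binds chromatin to the nuclear envelope, had 261, and the lamin A gene LMNA had 166. Signalling genes included CSK, the kinase that holds Src kinases inactive, with 320 reads in 10 clusters, the most of any of the 136, and the receptor gene TNFRSF1A with 110. HYPK, a partner of the N-terminal acetyltransferase, had 321 reads, all 5 of its clusters in coding sequence. The membrane protein gene TMUB1 had 240 reads in 7 clusters, 3 of them in coding sequence. CHMP1A, an ESCRT protein of membrane scission, had 218 reads in 7 clusters, 6 in the 3' UTR. The DNA sensor gene IFI16 had 229 reads, PTMS, which encodes parathymosin, had 280, and the nucleoside diphosphate kinase gene NME3 had 257. The T-box transcription factor gene TBX2 had 158 reads in 1 cluster.

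Positions of the clusters in the ZC3H7A library did not directly enter the choice of genes. The choice did rest on absence of ZC3H7B clusters. Over all genes of the ZC3H7B library 55.8% of clusters lay in the 3' UTR and 0.771% in the 5' UTR. Position and the rule may therefore be tied, which was not tested. For the 107 protein-coding genes, 20.3% of 379 clusters lay in the 3' UTR (16.4 to 24.7%), against 41.3% of 45010 clusters (40.8 to 41.8%) for the 4427 protein-coding genes listed for both. The 5' UTR held 10.8% (7.88 to 14.4%) and 3.52% (3.35 to 3.69%). Start codons held 4.49% (2.63 to 7.08%) and 1.43% (1.32 to 1.54%), and stop codons 3.96% (2.23 to 6.44%) and 1.45% (1.34 to 1.56%). Coding sequence held 48.0% (42.9 to 53.2%) and 43.4% (42.9 to 43.8%), whose intervals meet. For introns the shares of 7.12% (4.75 to 10.2%) and 5.89% (5.67 to 6.11%) had overlapping intervals. Clusters of 1 gene are not independent, so these intervals are too narrow.

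**Figure D3:**
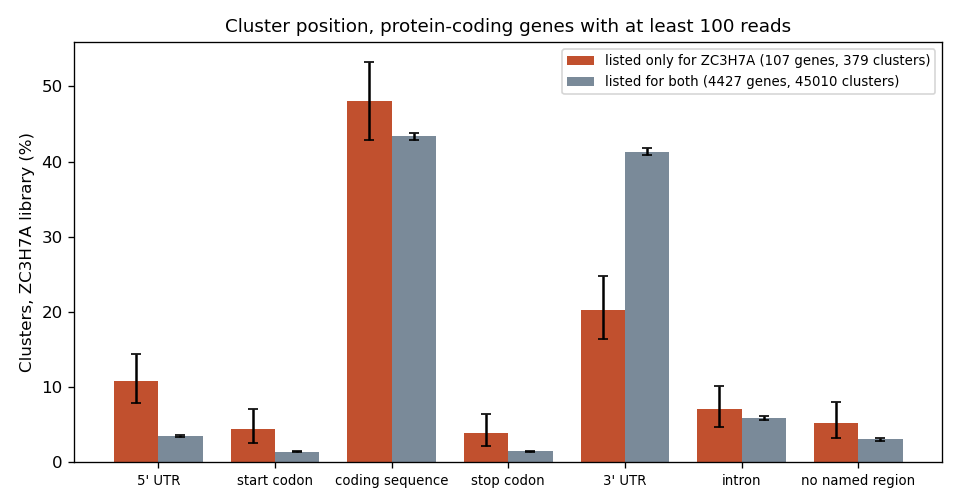
Bars give the percentage of ZC3H7A clusters in each transcript region for protein-coding genes with at least 100 reads, left for the 107 genes listed only for ZC3H7A and right for the 4427 listed for both, with exact 95% intervals. The 3' UTR bars stand at 20.3% and 41.3% and the 5' UTR bars at 10.8% and 3.52%.

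The difference in position was present among genes of like coverage. Among protein-coding genes with 100 to under 150 reads, the 3' UTR held 18.9% of clusters (13.6 to 25.3%) for the 61 missing genes and 36.4% (34.6 to 38.3%) for the 706 listed for both, and the 5' UTR held 11.6% (7.40 to 17.0%) and 4.36% (3.61 to 5.22%). With 150 to under 400 reads the 3' UTR values were 21.6% (15.8 to 28.4%) and 37.8% (36.8 to 38.7%). Among genes with 2 to 3 clusters they were 14.4% (8.62 to 22.1%) and 32.5% (30.1 to 35.0%), and with 4 to 6 clusters 21.3% (16.1 to 27.3%) and 34.0% (32.9 to 35.2%).

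By gene, 48 of all 136 had a cluster in the 3' UTR (35.3%), where 73.8% of all genes with at least 100 reads did. The 136 include 22 pseudogenes, none with a 3' UTR cluster. The gap was smaller among protein-coding genes with 100 to under 150 reads. There 25 of 61 had a 3' UTR cluster (41.0%, 28.6 to 54.3%), against 447 of 706 listed for both (63.3%, 59.6 to 66.9%). A 5' UTR cluster was present on 33 of the 136 (24.3%), where 24.8% of all such genes had one, but those genes also include many with far more clusters. Among protein-coding genes with 100 to under 150 reads, 17 of 61 had a 5' UTR cluster (27.9%, 17.1 to 40.8%), against 93 of 706 listed for both (13.2%, 10.8 to 15.9%). Genes with at least 2 clusters were seldom confined to 1 region. Of 109 such genes, 14 had every cluster in coding sequence (12.8%, 7.20 to 20.6%), against 339 of 4505 listed for both (7.52%, 6.77 to 8.33%). These intervals overlap. The shares were not matched by cluster number, with a median of 4 for the 109 genes and 7 for all genes listed for both. The 14 genes included HYPK, ZNF565, IFI16, LMNA, the ribosome biogenesis gene TCOF1 and the DNA repair gene MRE11A. ZNF565 and MRE11A overlap ZNF146 and ANKRD49, which were listed for ZC3H7B. Every cluster lay in the 3' UTR for C17orf96 and RBM38, in introns for STX8 and SOX5, and in the 5' UTR for UBE2S, whose span overlaps RPL28.

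The region shares were also followed across the reads of the other library, over all genes with 100 to under 400 ZC3H7A reads. The 3' UTR held 19.2% of ZC3H7A clusters (15.4 to 23.3%) for the genes not listed for ZC3H7B, 25.8% (21.0 to 31.2%) with under 10 ZC3H7B reads and 21.0% (19.2 to 23.0%) with 10 to under 50. It held 29.8% (28.6 to 31.1%) with 50 to under 200 and 48.2% (46.9 to 49.5%) with 200 or more. The 5' UTR held 9.70% (6.99 to 13.0%), 5.30% (3.06 to 8.46%), 6.12% (5.04 to 7.35%), 3.79% (3.28 to 4.35%) and 3.47% (3.01 to 3.97%) in the same order. The intervals of the genes not listed overlapped those of both groups with under 50 ZC3H7B reads, in the 3' UTR and in the 5' UTR alike.

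**Figure D4:**
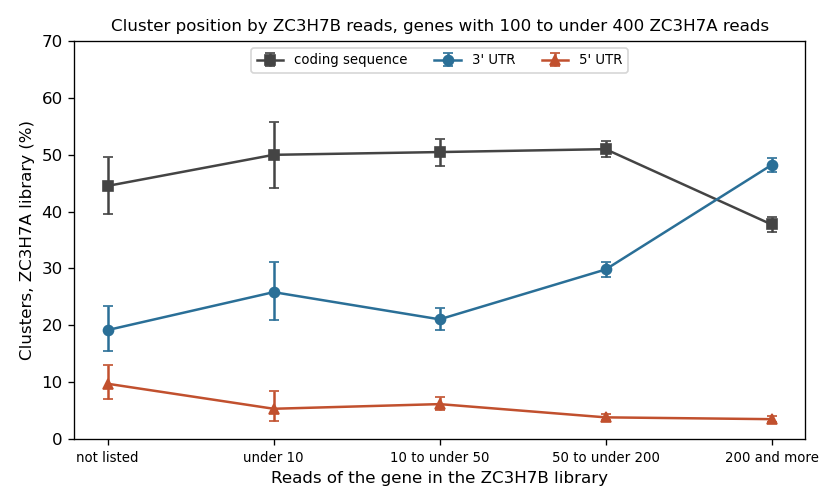
Points give the percentage of ZC3H7A clusters in coding sequence, the 3' UTR and the 5' UTR for genes with 100 to under 400 ZC3H7A reads, grouped by their reads in the ZC3H7B library, with exact 95% intervals. The 3' UTR points run between 19.2% for genes not listed and 48.2% for genes with 200 or more ZC3H7B reads.

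Conversion was complete or nearly so on most of the 136 genes. The median T-to-C fraction over the clusters of a gene was 1.00 for 77 of them (56.6%), against 3229 of 4575 listed for both (70.6%). It was under 0.5 for 8 of the 136, where 0.233% of all genes with at least 100 reads, 11 in number, had such a value. All 8 had 1 cluster. They were RNA5SP382, a pseudogene of 5S ribosomal RNA (997 reads, fraction 0.10), RP11-844G16.1 (502 reads, 0.12), the pseudogenes EEF1A1P29 (175 reads, 0.15), EEF1A1P9 (187 reads, 0.16) and EEF1A1P22 (472 reads, 0.23) of a translation elongation factor, RP11-365O16.5 (244 reads, 0.21), CAPN14 (156 reads, 0.23) and RP11-563D10.1 (140 reads, 0.28). The parent gene EEF1A1 had 1653 ZC3H7A reads at a fraction of 0.93, and 1595 ZC3H7B reads at 0.90. HIST1H3D stood at 0.63 and the transcription factor gene HES6 at 0.58.

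**Figure D5:**
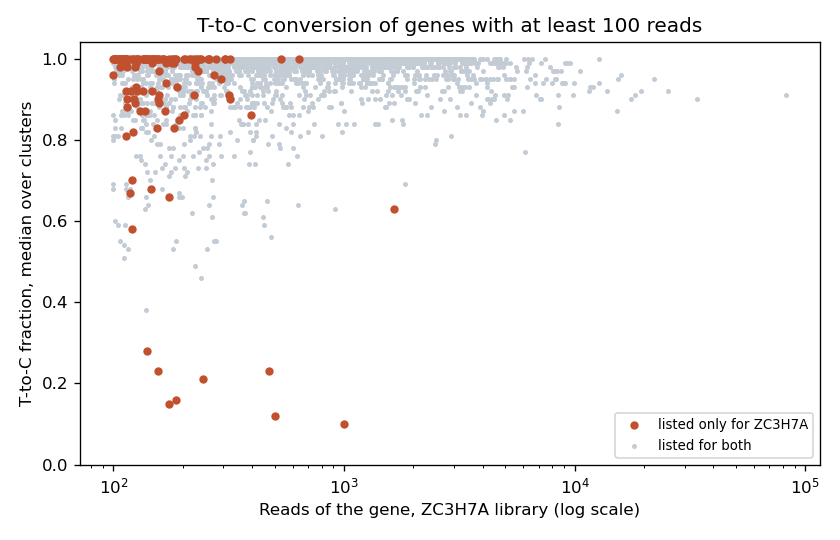
Each point is a gene with at least 100 ZC3H7A reads, placed by its reads (log axis) and by its T-to-C fraction, the median over its clusters. Of the 11 genes under 0.5, 8 are among the 136 listed only for ZC3H7A.

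The remaining pseudogenes had higher fractions. CTD-2302E22.3 had 397 reads in 1 cluster at 0.86. HNRNPDP1, a copy of HNRNPD, had 227 reads at 0.98, and its parent had 1618 reads for ZC3H7A and 194 for ZC3H7B. MRPL3P1 had 203 reads at 0.86, with its parent at 531 and 199. A parent could be named from the symbol for 11 of the 22 pseudogenes, and each of these parents was listed for ZC3H7B. Among all genes with at least 100 ZC3H7A reads, only 2.89% were missing for ZC3H7B. In 16 of the 127 genes matched to RefSeq, the RefSeq span overlapped that of a gene listed for ZC3H7B. No such counts of parents or overlaps are given here for the genes listed for both, so neither is shown to be particular to the 136.

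A single cluster carried all reads of 27 of the 136 genes (19.9%), against 70 of 4575 listed for both (1.53%). Of the 27, 17 were pseudogenes, which had 1 cluster in 77.3% of the members and 54.9% of those listed for both. Among protein-coding genes the counts were 7 of 107 (6.54%) and 25 of 4427 (0.565%). Over all 136 genes the median was 3 clusters, against 7 for the genes listed for both. Among genes with 100 to under 150 reads it was 3 against 4. Reads per distinct read were 12.2 over the 136 genes and 12.8 over the genes listed for both. SSPN, in 1 cluster, had 120 reads made of 4 distinct reads.

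The microRNA genes MIR3610 and MIR3655 had 131 and 115 reads, each in 1 cluster, with fractions of 0.87 and 0.88, and 7 and 8 distinct reads. MicroRNAs are short RNAs that guide silencing complexes through their seed, and these were the entries of class miRNA with at least 100 reads. MIR3655 overlaps IK, which had 97 reads for ZC3H7A and 31 for ZC3H7B, and MIR3610 overlaps RAD21, with 2008 and 1684, so the reads may belong to either annotation. The mature RNA from RefSeq (GRCh38.p14, chr5:140647844-140647864, plus strand) is shown because 4-thiouridine can enter it at 8 uridines among its 21 bases, with the seed, bases 2 to 8, in capitals.
hsa-miR-3655: gCUUGUCGcugcgguguugcu

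Where in the genome the 136 genes lie was not part of their choice. A RefSeq promoter entry, which also gives the chromosome, was matched for 88 of them and for 3747 of the genes listed for both. Shares were computed for each chromosome with entries, and chromosome 19 is given because its difference was the largest. The intervals do not allow for this choice. Chromosome 19 held 19 of the 88 (21.6%, 13.5 to 31.6%) and 264 of the 3747 (7.05%, 6.25 to 7.91%). Among genes with 100 to under 150 reads it held 12 of 51 (23.5%, 12.8 to 37.5%) and 40 of 596 (6.71%, 4.84 to 9.03%). Among genes with 150 reads or more it held 7 of 37 (18.9%, 7.96 to 35.2%) and 224 of 3151 (7.11%, 6.24 to 8.06%), and these intervals overlap. PRDX2, UBE2S, ZNF565, SDHAF1 and CCDC94, a splicing factor with 223 reads, were among the 19. The GC content of the 300-base promoter entries had a median of 63.7% for the 88 genes and 65.0% for the others, with quartiles of 55.3 and 70.8% against 58.7 and 71.0%.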

How the data were processed

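The submitters' processing notes name STAR 2.5.2a, Bowtie and cutadapt with build hg19 but not their roles. How clusters were called is not given in the sources used here. Each library has 1 table that the authors deposited, with 1 row per gene. Its counts are, per the file headers, clusters, reads and distinct reads per gene and clusters per region, with the exon column read as coding sequence. The deposited fraction is the share of reads of a cluster with a T-to-C conversion, as the median over clusters. A deposited score sums this fraction and was not used here. A deposited log10 value of conversion specificity was not used either.

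Tables were joined by gene name. Libraries were grouped by sample title. Genes with at least 100 ZC3H7A reads that were listed for both proteins served for comparison, as a description and with no test. The promoter entries count 300 bases. Names, biotypes, overlaps and sequences came from RefSeq (GRCh38.p14), which matched 127 of the 136 genes and 4614 of 4711 with at least 100 reads. The members and gene lists were chosen with earlier results of these data known. Genes were named by most reads, most clusters, class, list and nearness to the threshold. Other genes in the text, such as EIF2B3, LMNA and APOOL, and relatives outside the 136 were chosen after their values were seen. The member rule was checked on simulated tables. Software versions were matplotlib 3.10.9, scipy 1.17.1, numpy 2.4.6, pandas 2.3.3 and Python 3.11.15.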

Additional observations from a re-analysis of the deposited data

How the results depend on the processing

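Of 32 alternatives 25 moved a value by less than its interval or, for values with no interval, stayed within the quartiles over genes or within 1.5 times the count, and 7 moved it by more. The number of genes was 334 with a minimum of 50 reads and 33 with a minimum of 200, against 136. It was 122 with a minimum of 10 distinct reads, and 136 with older and newer symbols joined. The coding share of clusters was 43.1% over all 136 genes, 36.0% as a mean over genes and 48.0% over protein-coding genes alone. The 3' UTR share was 18.7% over all 136 genes, 14.7% as a mean over genes and 23.4% with a minimum of 200 reads. The like values of the genes listed for both were 40.9%, 36.5% and 41.6%. The 5' UTR share lay between 8.43% and 10.8% under all 6 alternatives tried for it, against 9.60%. The T-to-C fraction was 0.85 as a mean weighted by reads, against a median of 1.00. No paired analysis was possible because each protein has 1 library. A median of 13 distinct reads limits the precision of values on single genes. The ZC3H7A library held 300394 distinct reads, against 1213039 in the ZC3H7B library, in which these genes are missing.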

Other observations

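Rows of repeats, tRNAs and other pooled small RNA classes were left out above. Of 122 such rows with at least 100 ZC3H7A reads, 8 were missing from the ZC3H7B table. The entry 7SK, an RNA that regulates transcription elongation, had 984 reads from 107 distinct reads in 10 clusters and a T-to-C fraction of 0.92. The tRNA-Arg-AGG entry had 569 reads in 1 cluster at 0.25 and tRNA-Ser-TCY had 268 in 1 cluster at 0.75.

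The 136 genes had a median of 3 clusters and 13 distinct reads in the ZC3H7A library, where all listed genes had medians of 4 and 13. Genes listed for both with at least 100 ZC3H7A reads had medians of 7 and 32. In the other direction, the 123 genes with at least 100 ZC3H7B reads that were missing for ZC3H7A had a median of 10 clusters and 77 distinct reads, where all genes listed for ZC3H7B had medians of 7 and 47. In the ZC3H7B library 66.5% of clusters of the 123 genes lay in the 3' UTR and 0.362% in the 5' UTR, beside 55.8% and 0.771% over all its genes. All genes listed for ZC3H7B were taken without a read minimum and had a median of 82 reads. They are therefore not matched in coverage to the 123 genes, in clusters, distinct reads or regions.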
